A study of Mus musculus with 4 samples.

Results

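The distal ends of the 19 mouse autosomes were examined in fetal liver DNA as the last 2 Mb of probe-covered sequence on each chromosome. For each autosome the largest probe end on build mm9 was taken, and probes starting within 2 Mb before it were kept. Probes whose starts lay at most 500 bp apart were joined into regions of about 2000 bp or less, each with at least 3 probes. This gave 1416 distal regions out of 54542 on the autosomes and 56653 on all chromosomes. They held 10179 of the 10553 probes in the windows. The middle distal region by size had 7 probes, and by length it spanned 1349 bp. The number of regions per end ran from 6 on chromosome 17 to 190 on chromosome 15. The 5 fullest ends, those of chromosomes 2, 4, 10, 11 and 15, held 890 regions, or 62.9% of them, so pooled values lean on these ends.

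The livers came from C57BL/6J fetuses taken on gestation day 18. From gestation day 10 to 17 the dams of the food restricted group were given 50% of what the control group consumed, while control dams were fed ad libitum. Each group was 1 pool of liver DNA, described as N=6, and no genotype other than the strain is named. Each pool was hybridised on 2 arrays with exchanged dyes, and each of the 2 slides carried both pools. Both arrays of a group therefore repeat 1 sample, and differences between the pools have no replicate check and no test was run. The array reports methylation by position and holds no transcript levels, so the labelled tissue was not checked by markers.

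Mouse chromosomes carry the centromere close to one tip, and their sequence maps count from that tip, so the highest coordinates lie at the end of the long arm. That end is capped by the telomere, an array of short repeats bound by protective proteins, and the sequence inside it is called subtelomeric. In mammals subtelomeric DNA is packaged partly as heterochromatin and is known to carry DNA methylation, laid down by the DNA methyltransferases Dnmt1, Dnmt3a and Dnmt3b. Tiling arrays leave out most repeats, so the measured regions are the unique sequence inside the telomere. The distance from the last probe to the telomere was not measured. In the assay used here (MeDIP-chip), an antibody pulls down methylated DNA and the ratio of pulled-down to total DNA is read at each probe. That ratio follows the number of methylated CG sites in a fragment, so a fragment with few CG sites reads low whatever the methylation of each site.

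The ends differ in their genes. In the RefSeq table of build GRCm38.p6, which is not the build of the array and was not joined to the probes, the last 2 Mb before the end of the last protein-coding gene held 516 protein-coding genes over the 19 autosomes. A promoter sequence was listed for 415 of them (80.4%). The end of chromosome 10 held 89 genes, of which 58 were olfactory receptor genes, coding for odour receptors of the nose, and 4 were vomeronasal receptor genes. The end of chromosome 11 held 68 genes, among them Metrnl, coding for a secreted protein, and Tbcd, a tubulin folding factor. The end of chromosome 4 held 57, among them Noc2l, coding for a nucleolar protein, and Isg15, a ubiquitin-like protein induced by interferon.

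CG content per promoter was counted in the 250 bases before each gene's start, where CG reads the same on both strands and its copies cannot overlap. A gene with several listed starts was given the highest count among them. The median was 11 CG over the genes with a listed promoter at the ends and 11 over all 16456 autosomal genes with one. Of all 32851 listed promoters, 92.1% held at least 1 CG. The median was 18 at the ends of chromosomes 4 and 11, 15.5 on chromosome 2, 11 on chromosome 15, 6.5 on chromosome 9 and 1 on chromosome 10. It was highest on chromosome 16, at 18.5, with 15 on chromosome 19, 13.5 on chromosome 6 and 11 on chromosome 12. The ends of chromosomes 6, 12, 16 and 19 all had lower array enrichment than the rest of their chromosomes. Promoter CG counts therefore do not give the order of the ends in enrichment. At the end of chromosome 10, 48 of the 72 genes with a listed promoter had at most 1 CG (66.7%). Of all autosomal genes with a promoter, 14.9% did. Below are 3 promoters from RefSeq GRCm38.p6, chosen after the table was seen, to show this range, with each CG in capitals. Metrnl (chr11:121702177-121702426, plus strand) has 20 CG, Noc2l (chr4:156235760-156236009, plus strand) has 24, and Olfr826 (chr10:130180879-130181128, minus strand), an olfactory receptor gene, has 0. For Noc2l this is the highest count over its 2 listed starts.
Metrnl: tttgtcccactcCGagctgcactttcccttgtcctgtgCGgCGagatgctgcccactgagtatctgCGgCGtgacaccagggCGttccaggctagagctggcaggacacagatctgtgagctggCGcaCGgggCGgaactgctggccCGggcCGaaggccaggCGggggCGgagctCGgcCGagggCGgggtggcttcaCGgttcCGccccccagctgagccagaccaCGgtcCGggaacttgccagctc
Noc2l: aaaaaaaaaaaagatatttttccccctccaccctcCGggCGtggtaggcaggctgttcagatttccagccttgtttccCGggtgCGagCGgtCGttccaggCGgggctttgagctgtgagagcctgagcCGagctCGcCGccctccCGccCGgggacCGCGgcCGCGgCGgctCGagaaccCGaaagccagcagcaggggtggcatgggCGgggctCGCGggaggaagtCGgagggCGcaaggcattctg
Olfr826: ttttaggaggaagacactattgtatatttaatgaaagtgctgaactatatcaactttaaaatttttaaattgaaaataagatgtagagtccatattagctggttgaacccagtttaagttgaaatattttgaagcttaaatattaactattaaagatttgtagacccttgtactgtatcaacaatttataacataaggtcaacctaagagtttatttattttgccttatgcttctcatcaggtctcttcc

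The measure of enrichment, M, is log2 of immunoprecipitated over reference signal, with the array's own median taken off, and the M of a region is the median over its probes. M is relative to the array, so a value of 0 is a typical probe and not a methylation level of 0. Median M of the distal regions was -0.46 and -0.50 on the control arrays of slides 1 and 2, and -0.39 and -0.40 on the food restricted arrays. The other 53126 autosomal regions had medians of -0.05 and -0.06 in control and -0.07 and -0.06 in food restricted. The distal ends were thus lower on all 4 arrays. With M averaged over the arrays of a pool, the difference was -0.45 for control and -0.34 for food restricted. These are ratios 1.37 and 1.27 times lower than in the rest of the autosomes. The arrays' own differences were -0.41 and -0.44 for control (SD 0.0169, n = 2). For food restricted they were -0.33 and -0.34 (SD 0.0104, n = 2). The spread is that of repeat hybridisations of 1 pool and does not cover animals. With normexp background correction, which shrinks ratios at dim probes, the difference kept its direction but was -0.15 in each pool.

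Poorly enriched regions were more frequent at the ends and highly enriched regions less frequent. In the control pool, 521 distal regions (36.8%) had M below -1, against 27.7% of all autosomal regions, and 344 (24.3%) had M above 1, against 30.1%. In the food restricted pool, 420 (29.7%) lay below -1, against 21.4%, and 312 (22%) lay above 1, against 28.2%. Both channels differed from the rest. The log2 immunoprecipitated signal of distal regions, centred per channel, was below the rest on every array, with differences of -0.33 and -0.34 for control and -0.22 and -0.25 for food restricted. The reference signal was above the rest by 0.11 on both control arrays and by 0.15 and 0.16 on the food restricted arrays.

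The opposite tips of the chromosomes were nearer to the rest. The first 2 Mb of covered sequence held 1235 regions, with a median M of -0.23 for control and -0.19 for food restricted. Their difference from the remaining autosomal regions was -0.16 and -0.12. The low values at the distal ends were therefore larger in size than those at the proximal tips in both pools.

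Distal regions were measured at a higher probe density, with a median of 314.0 probes in their 500 kb bin against 169.0 for the other regions. Within 4 classes of this density the distal regions remained lower. In the control pool the difference was -0.54 up to 172 probes, -0.73 up to 314, -0.54 up to 422 and -0.27 above that. In the food restricted pool it was -0.42, -0.61, -0.46 and -0.22. The gap was smallest in the densest class in both pools.

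Not every end was low. Averaged over the arrays, the distal median was below that of the other regions of the same chromosome on 15 autosomes and above it on 4. The direction was the same on all 4 arrays for 18 autosomes. The exception was chromosome 13, with 18 distal regions, where the difference was 0.20 for control and -0.05 for food restricted. Over the 19 autosomes the median difference was -0.77 in control, with a range from -1.29 to 0.51, and -0.56 in food restricted, with a range from -1.14 to 0.44.

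**Figure D1:**
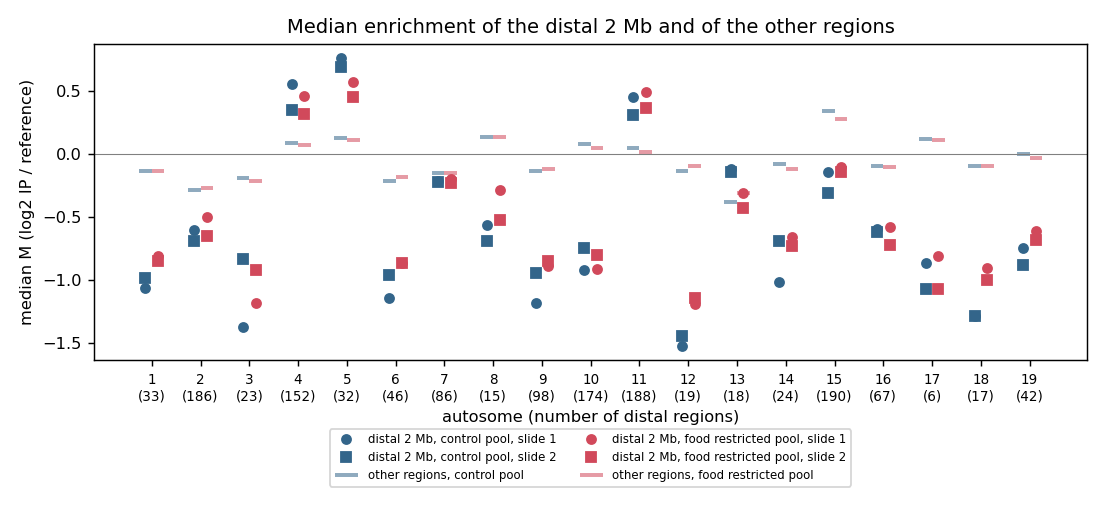
Median M (log2 immunoprecipitated over reference) of the distal 2 Mb of each autosome on each of the 4 arrays (circles slide 1, squares slide 2), with the pool medians of the chromosome's other regions as bars and the number of distal regions in brackets. The ends of chromosomes 4, 5 and 11 lie above their bars on every array (that of chromosome 4 falls below after normexp or loess, and that of chromosome 11 after loess), and 15 ends lie below them on average.

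The lowest end was that of chromosome 12, with 19 regions and a difference of -1.29 for control and -1.14 for food restricted. None of the other windows of 2 Mb on chromosome 12 had a lower median, out of 47 windows with at least 5 regions. Chromosome 18 (17 regions) differed by -0.96 and -0.99, and all 17 of its regions had mean M below 0. Chromosome 10 (174 regions), the end rich in olfactory receptor genes, differed by -0.86 and -0.95, but by 0.05 over both pools after normexp and by -0.13 without probes of dim immunoprecipitated signal. Chromosome 9 (98 regions) differed by -0.94 and -0.68. The corresponding values for chromosome 9 were -0.21 and -0.12. Chromosome 17 differed by -1.18 and -1.05, on 6 regions only. Chromosomes 12 and 18 kept their direction in both settings, at -0.26 and -0.21 after normexp and -1.48 and -1.38 without the dim probes, so the order of the low ends depends on how dim signal is treated. Across the autosomes, the distal window lay among the lowest 25% of the chromosome's windows at 12 ends and among the highest 25% at 3.

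Those 3 were chromosomes 4, 5 and 11, of which only chromosome 5 stayed above the rest under every alternative run. On chromosome 11 (188 regions) the distal median exceeded that of the rest by 0.32 in control and 0.40 in food restricted. On chromosome 4 (152 regions) the excess was 0.37 and 0.35, and on chromosome 5 (32 regions) 0.51 and 0.44. After loess the differences over both pools were -0.01 for chromosome 11, -0.14 for chromosome 4 and 0.29 for chromosome 5, and after normexp they were 0.04, -0.09 and 0.20. On chromosome 7 (86 regions), whose end carries the growth factor genes Fgf4 and Fgf15 and the cyclin gene Ccnd1, the difference was -0.01 in both pools. Over both pools it was -0.04, and it was -0.29 after normexp, -0.24 after loess and -0.43 without probes of dim immunoprecipitated signal. Chromosome 15 (190 regions), whose end holds Glycam1, coding for a secreted mucin-like protein, and chromosome 2 (186 regions) lay between these and the lowest ends, at -0.59 and -0.42 for chromosome 15 and -0.42 and -0.32 for chromosome 2. After normexp they were -0.30 for chromosome 15 and -0.49 for chromosome 2 over both pools, below chromosomes 12 and 18, so this order changes with the background correction.

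Within the windows, enrichment fell towards the tip. In the last 0.5 Mb (392 regions) median M was -0.99 and -0.92 on the control arrays and -0.76 and -0.82 on the food restricted arrays. From 0.5 to 1 Mb (341 regions) the pool medians were -0.73 and -0.65. From 1 to 1.5 Mb (334 regions) they were -0.01 and -0.03, and from 1.5 to 2 Mb (349 regions) -0.05 and -0.06. In these pooled medians the low values thus lay in the last 1 Mb. The next 1 Mb was near the level of -0.07 found in both pools more than 4 Mb from the tip. Between 2 and 4 Mb (1118 regions) M was 0.38 and 0.34, above both.

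**Figure D2:**
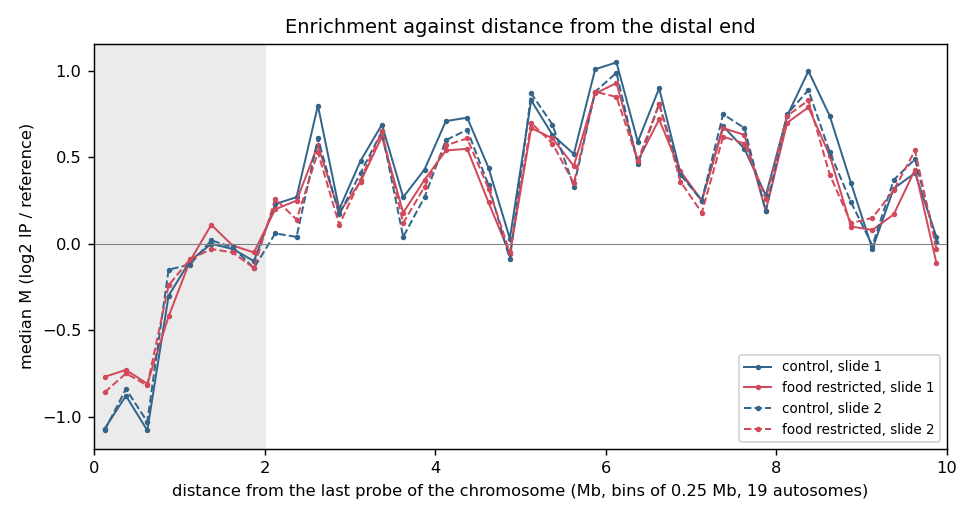
Median M of autosomal regions in bins of 0.25 Mb by distance from the last probe of the chromosome, 1 line per array, pooled over the 19 autosomes, with the distal 2 Mb shaded. All 4 lines are lowest in the first 0.75 Mb from the tip and lie above 0 in most bins beyond 2 Mb.

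The pooled profile depends on which chromosomes fill a bin, so it was also taken over autosomes. The median M of the last 0.5 Mb averaged -0.79 ± 0.72 (SD over 18 autosomes), and that from 1.5 to 2 Mb averaged -0.16 ± 0.83 (SD over 19 autosomes). The spread between chromosomes was larger than the gap between these means. From 0.5 to 1 Mb the average was -0.73 ± 0.87 (SD over 16 autosomes), and from 1 to 1.5 Mb -0.31 ± 0.65 (SD over 14 autosomes). From 2 to 4 Mb it was 0.10 ± 0.64 (SD over 19 autosomes). The step at 1 Mb and the rise beyond 2 Mb were thus smaller than in the pooled medians. With at least 5 regions in both the last 0.5 Mb and the class from 1.5 to 2 Mb, 15 autosomes could be compared. The last 0.5 Mb was lower in 14 of them. On chromosome 16 mean M over the arrays had a median of -1.22 in the last 0.5 Mb and 1.17 from 1.5 to 2 Mb, and on chromosome 15 -1.24 and 0.81. On chromosome 5, an end that was high as a whole, the values were -0.10 and 1.44. Among the 15 the exception was chromosome 4, with 0.43 at the tip and 0.00 further in. Of the 4 autosomes with fewer regions, chromosome 12 was lower at the tip (-1.30 against -0.92), and chromosomes 13 (1.06 against -0.69), 17 (0.25 against -1.56) and 18 (-0.54 against -1.27) were higher.

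Single regions did not follow a smooth gradient. In the control pool, 50% of the regions in the last 0.5 Mb had M below -1 and 15.3% had M above 1. From 1.5 to 2 Mb these shares were 26.9% and 30.4%. Unbroken runs of regions below 0, counted inward from the tip, reached 17 regions on chromosome 18, 13 on chromosome 3, 9 on chromosome 10 and 8 on chromosome 9. On chromosomes 4, 7, 11, 13, 17 and 19 the last region itself had M above 0, so the run there was 0.

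**Figure D3:**
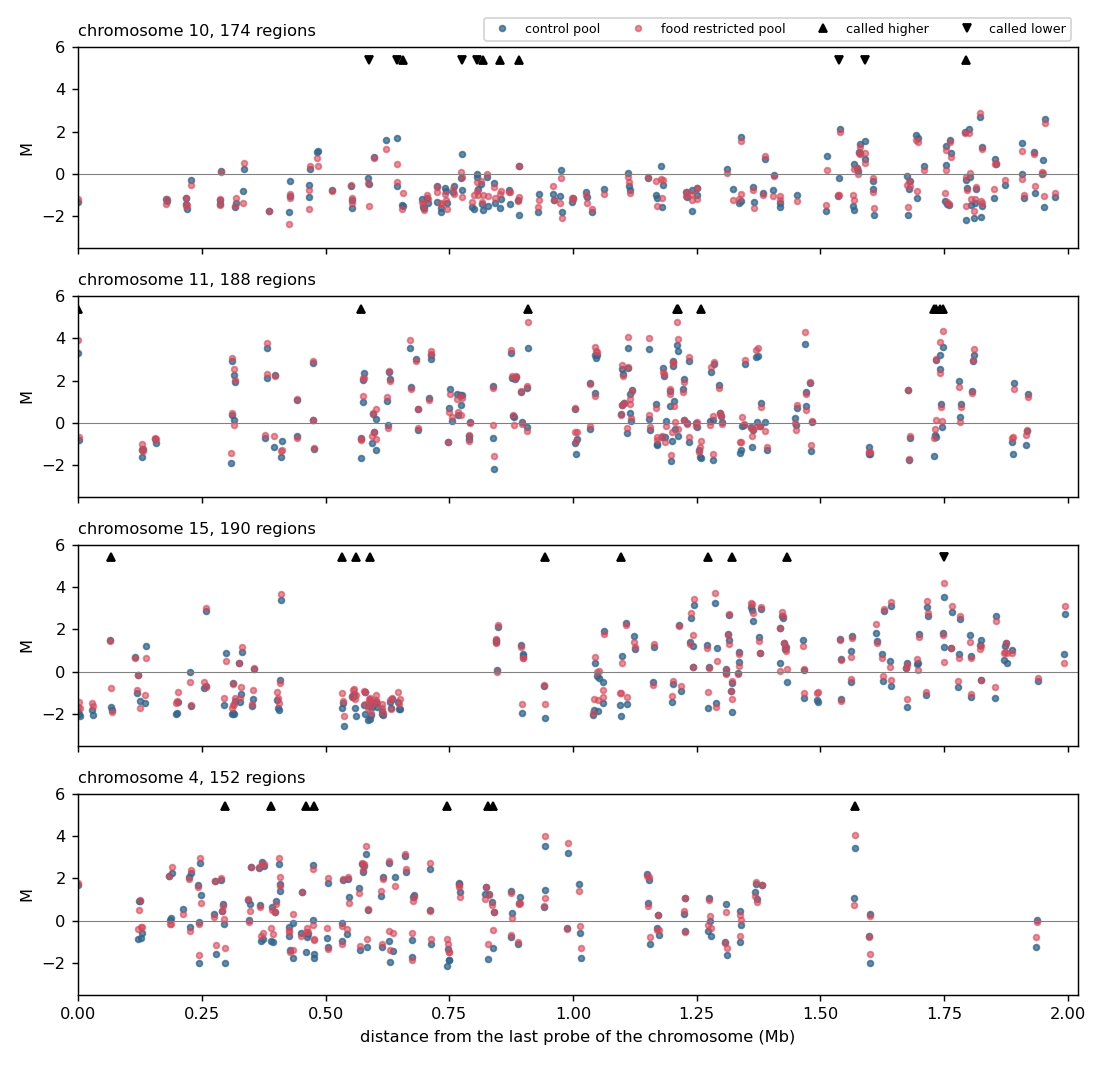
M of each region in the control pool (blue) and the food restricted pool (red) against distance from the last probe, for the ends of chromosomes 10, 11, 15 and 4. Triangles mark regions called higher (up) or lower (down) in the food restricted pool on both slides, and the plot shows mostly negative M along chromosome 10, M up to 4 and above on chromosome 11, and a low tip followed by high regions on chromosome 15.

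The 5 most enriched distal regions lay on chromosomes 2, 11 and 16. The highest was chr2:180198783-180199713 (mm9, 6 probes), 1400.4 kb from the tip, with M of 3.99 and 3.68 on the control arrays and 4.97 and 4.76 on the food restricted arrays. The others were chr16:96536605-96537770, chr2:180974877-180976065, chr11:120481298-120482683 and chr11:120782702-120783301, with M in the control pool from 3.52 to 3.80. Genes and exons at these positions are not named, because no table of build mm9 was at hand. After loess their mean M ran from 1.79 to 2.42, against 4.15 to 4.35 without it, and their order changed. All 5 were high on every array, and all 5 were also among the regions called higher in the food restricted pool.

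The 5 least enriched lay on chromosomes 2, 9, 10, 15 and 16. The lowest was chr15:102861366-102861938 (mm9, 4 probes), 537.1 kb from the tip, with M of -2.56 and -2.53 in control and -1.90 and -2.26 in food restricted. The region chr16:98180881-98181225 (3 probes) lay 4.93 kb from the last probe of its chromosome, at -2.28 for control and -1.86 for food restricted. The others were chr2:181193138-181193592, chr9:123896196-123896590 and chr10:129511113-129511962, with control M from -2.31 to -1.78. In all 5 the probes of the control pool were dim, meaning that under 50% of them had immunoprecipitated signal well above background on either array, so their M only shows that they are low. After normexp their mean M ran from -1.17 to -0.28, against -2.31 to -2.07 with the processed signals.

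The last region of each autosome, of which 15 end on the last probe itself and 18 lie within 10 kb of it, spanned nearly the whole range of M. Chromosome 6 ended low (chr6:149357976-149358978, 7 probes), with M of -2.14 and -2.57 in control and -1.47 and -1.54 in food restricted. There 0 of the 7 probes had immunoprecipitated signal well above background on either control array, so the control values only show that the region is low. The highest was on chromosome 19 (chr19:61303836-61304828, 6 probes), with 3.71 and 3.53 in control and 4.52 and 4.47 in food restricted. Chromosome 11 also ended high, at 3.32 and 3.92 in the pools, and chromosome 7 at 2.69 and 2.85. Over the 19 last regions the median was -0.96 in control and -0.73 in food restricted, with 9 below -1 and 6 above 0 in control. A low end and a high last region thus occurred together on chromosome 19, whose distal median was below the rest by -0.87 in control.

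**Figure D4:**
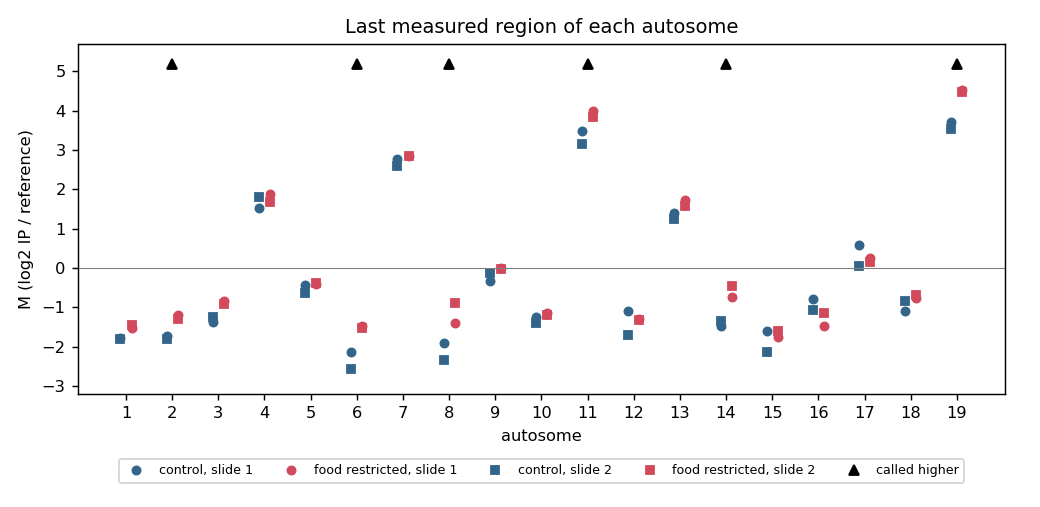
M of the last region of each autosome on each of the 4 arrays (circles slide 1, squares slide 2; blue control, red food restricted), with a triangle above regions called higher in the food restricted pool. Values run from -2.57 on chromosome 6, where the control probes were dim (as on chromosomes 8, 10, 14 and 15), to 4.52 on chromosome 19. Of the 19 regions, 6 are called higher.

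The pools were compared by D, M on the food restricted array of a slide minus M on its control array. The median D of the distal regions was 0.06 on slide 1 and 0.09 on slide 2, against 0.03 and 0.09 in the other autosomal regions. A region was called where D was at least 0.5 in size (a 1.41-fold difference) with the same sign on both slides. Of the distal regions 71 were called higher (5.01%), against 4.52% of all autosomal regions, and 8 were called lower (0.565%), against 0.605%. A further 11 passed the size with opposite signs (0.777%), against 0.666%. The shares at the ends were near those of the autosomes as a whole in both directions, and the count called lower was below the count with opposite signs. The direction of the median D and both counts depended on the scaling: D turned to -0.10 with arrays centred on their densest value, where 21 regions were called higher and 25 lower (45.7% of calls higher, against 89.9% with the median). These were 1.48% and 1.77% of the distal regions, against 1.35% and 1.99% of the other autosomal regions in that setting. D of the distal regions correlated between the slides at r = 0.33 over 1416 regions, whose D values on the slides come from the same pools and probes with the dyes exchanged, and at r = 0.35 over the other regions.

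**Figure D5:**
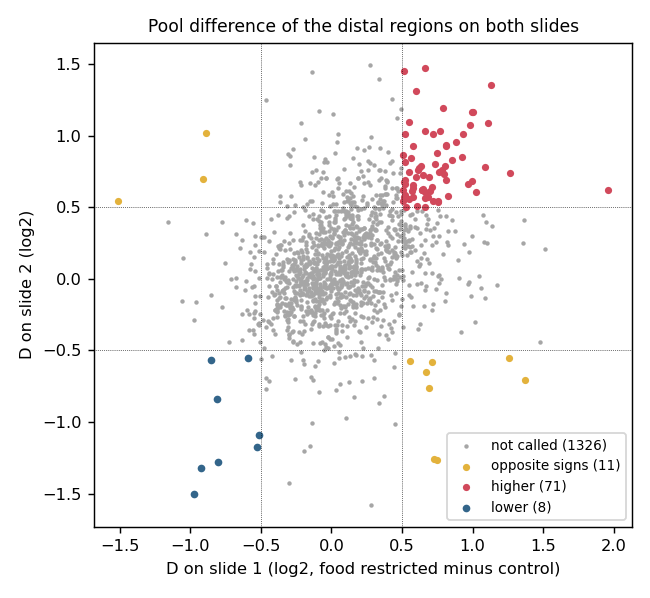
D (log2, food restricted minus control) of each of the 1416 distal regions on slide 1 and slide 2, with dotted lines at 0.5 and -0.5. The 71 regions called higher and the 8 called lower lie beyond the lines on both slides, and 11 lie beyond them with opposite signs.

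Regions called higher were found on 15 autosomes and at the extremes of M. Of the 71, 57 had mean M below 0, 13 had M above 3 and 1 lay between. Among distal regions with M above 3, 13 of 52 were called (25%), against 23.6% of such regions elsewhere, and at M of -1 or less 46 of 487 (9.45%), against 9.2%. None of the 167 distal regions with M from 1 to 2, and none of the 102 with M from 2 to 3, was called higher. At each level of M the share called at the ends was thus near that elsewhere.

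The highest-ranked call was chr11:120782702-120783301 (mm9, 4 probes), with M of 3.65 and 3.40 in control and 4.78 and 4.76 in food restricted. D was 1.13 and 1.35, a 2.37-fold higher ratio. Quantile normalization gave a mean D over the slides of 0.51 in place of 1.24, with 0.50 when the running median of D along M was taken off and 1.79 after loess. The log2 immunoprecipitated signal showed differences there of -0.24 and 0.27, and the reference signal -1.14 and -0.84, so the higher ratio went with a lower reference signal in the food restricted pool. The same was seen at chr2:180974877-180976065, chr11:120481298-120482683, chr2:180198783-180199713 and chr16:96457073-96458244, where D lay between 0.83 and 1.17. With quantile normalization D of these 4 was 0.10 to 0.25, and after loess at least 1.59. Reference signal differences ran from -1.13 to -0.81, and those of the immunoprecipitated signal from -0.50 to -0.28. Over all 52 distal regions with M above 3 the median differences were -0.50 and -0.58 in the reference and -0.38 and -0.29 in the immunoprecipitated signal. The 2772 other autosomal regions with M above 3 were near these values. They had -0.52 and -0.56 in the reference and -0.40 and -0.32 in the immunoprecipitated signal.

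The second-ranked call was of the other kind. At chr2:181021645-181022146 (4 probes) M was -1.89 and -1.40 in control and -0.78 and -0.31 in food restricted, a 2.14-fold higher ratio. Here the immunoprecipitated signal was higher by 1.09 and 1.14, with 0.11 and 0.27 in the reference. On the control arrays only 1 and 2 of its 4 probes had immunoprecipitated signal well above background, and D averaged over the slides was 0.26 after normexp and 0.30 after loess. The regions chr4:155150850-155152071, chr11:121121585-121122269 and chr2:181447199-181448513 were also low, with control M from -1.90 to -1.49 and food restricted M from -1.03 to -0.51. Their D was 0.13 to 0.49 after normexp, against 0.87 to 0.97 with the processed signals. Without probes of dim immunoprecipitated signal, D was 0.80 on chromosome 4 and 1.00 on chromosome 11, both still called higher. In that setting it was 0.31 at chr2:181447199-181448513, which was no longer called. At chr10:129046169-129047551 D was 0.93 and 0.85 with dim probes in the control pool, so no fold is given. The share of distal probes with immunoprecipitated signal well above background was 68.8% and 68.2% on the control arrays and 78% and 78.1% on the food restricted arrays, and its part in these calls was not tested.

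By distance, 21 of the 392 regions in the last 0.5 Mb were called higher (5.36%) and 0 lower. From 0.5 to 1 Mb, 23 of the 341 were called higher (6.74%) and 4 lower (1.17%). Over all autosomal regions the shares were 4.52% and 0.605%. Median D was 0.13 on both slides in the last 0.5 Mb and 0.01 and 0.08 from 1.5 to 2 Mb. These classes also differ in M, with the lowest values at the tip. Of the 19 last regions, 6 were called higher, on chromosomes 2, 6, 8, 11, 14 and 19, against 4.52% of all autosomal regions. All 6 had mean M of -1 or less or above 3, where 9.2% and 23.6% of the regions outside the ends were called higher. D was positive on both slides at 14 of the 19 last regions, and at 39.1% of the regions outside the ends, at all levels of M. On chromosomes 6, 8 and 14 none of the probes of the last region had immunoprecipitated signal well above background on the control arrays. The count of 6 changed with the processing. It was 2 of the 12 still measured without probes of dim immunoprecipitated signal, 2 of 19 after normexp background correction and 1 after quantile normalization. With the pools assigned by the deposited value table it was 0. By the array titles, that setting compares arrays of the same pool.

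Of the 8 regions called lower, 6 lay on chromosome 10, 1 on chromosome 6 and 1 on chromosome 15. The strongest was chr10:129292718-129293564 (6 probes), with M of 1.00 and 2.43 in control and 0.03 and 0.93 in food restricted. The next were chr10:129160286-129161409, chr10:129131141-129132597 and chr10:129349416-129350495, with D from -0.80 to -1.32. These 4 lay within 219.4 kb that held 27 regions. In each of the 4 the probes were dim in both pools. On the control arrays, 0 or 1 of the 5 to 7 probes had immunoprecipitated signal well above background, and in 3 of the regions 2 or 3 probes had such reference signal. At the end of chromosome 10, 6 of 174 regions were called lower (3.45%), against 10 (0.401%) in the rest of that chromosome. There 114 of the 174 regions were dim for control and 97 for food restricted. After normexp, D at the 4 neighbouring regions was -0.021, -0.036, -0.033 and -0.25, and 0 regions of this end were called lower. Without probes of dim immunoprecipitated signal these 4 kept fewer than 3 probes and were not measured, so the part of that dim signal in their calls was not tested. Without dim reference or saturated probes, D at chr10:129349416-129350495 was -0.041, against -1.04 with all probes. The other 3 were not measured in that setting, and 1 region of this end was called lower.

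The remaining calls included the 3 with measurable signal in both pools. At chr15:101648985-101649965 (5 probes) M was 1.09 and 1.23 in control and 0.24 and 0.66 in food restricted, a 1.63-fold lower ratio. At chr10:128347402-128348289 (5 probes) it was 1.79 and 1.37 against 1.20 and 0.82, or 1.49-fold lower. At chr6:147455888-147457334 (7 probes) the pool means were 1.84 against 0.99, or 1.80-fold lower. In all 3 the repeats of 1 pool lay apart from those of the other, which the calling rule favours, so it is no further support. Without probes of dim immunoprecipitated signal, D averaged over the slides was -0.50 at the region on chromosome 10, against -0.57 with all probes, and -0.23 on chromosome 15 and 0.17 on chromosome 6. With the mean over probes in place of the median, D was -0.031, 0.028 and -0.18 at these regions on chromosomes 10, 15 and 6.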

How the data were processed

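DNA methylation was measured by MeDIP-chip on 4 2-colour arrays, 2 per pool of fetal liver DNA. The submitters' processing notes name Agilent Feature Extraction 10.5.1.1, with which the authors made the processed intensity values. Per the file headers, local background was subtracted, dim signals were replaced by a surrogate and a linear dye factor was applied within each array. Probe positions are on mm9, per the file headers. The deposited flags (other values of 0 or 1) mark saturated, outlying and dim spots. The deposited value table gives log2 of red over green signal; 2 of its columns, food restricted of slide 1 and control of slide 2, hold each other's scanner values (within 0.001 at 100.0% of probes, r = -0.91 with their own). Its direction is not turned for the dyes, its column medians run from -0.23 to 0.24, and the assignment of arrays to pools therefore rests on the titles of the scanner files. By those titles, D taken with the value table's assignment is slide 2 minus slide 1 within each pool. It is then not a difference between the pools.

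Of 420288 spots, 4474 control spots and 65 probes with outlier flags were left out. M was computed in Python 3.11.15 with pandas 2.3.3 from processed signals, with the direction set by the titles' dyes, and centred per array without loess or quantile steps. Median background-subtracted immunoprecipitated signal was 39.1 and 29.5 on the control arrays and 63.2 and 43.8 on the food restricted arrays; no distal probe was saturated, and the number of arrays limits the precision. The position of the pools on the slides was the same on both, so position and pool cannot be told apart. Numbered arrays of the pools share a slide, which pairs them, so D was taken within slides. A region was dim in a pool where, on both arrays, under 50% of its probes had immunoprecipitated signal well above background. A fold is 2 to the power of the mean D and is not given where a pool was dim. The scripts were tested on simulated data. Of the alternatives, normexp (offset 50) used limma 3.58.1 in R 4.3.3, and loess and quantile normalization were run in Python. Regions named are the 5 with the highest and the 5 with the lowest mean M, up to 10 called per direction ranked by the smaller D, and the last region of each autosome. The members, lists and rules were chosen with earlier results of these data known.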

Additional observations from a re-analysis of the deposited data

How the results depend on the processing

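The lower enrichment of the distal ends kept its direction under every alternative run, with sizes from -0.054 to -0.81. Leaving out the centring or centring on the densest value cannot change this difference. The difference in the control and food restricted pools was -0.15 and -0.15 with normexp background correction, -0.31 and -0.31 with loess, -0.41 and -0.37 with quantile normalization, and -0.30 and -0.27 without probes of dim immunoprecipitated signal. With the mean over probes it was -0.41 in control. With the pools assigned by the value table it was -0.38 and -0.40, where by the array titles each value mixes both pools. A window of 1 Mb gave -0.81 and -0.67, and one of 4 Mb gave -0.064 and -0.054 with 8 autosomes above the rest. Leaving out a slide gave -0.44 to -0.41 in control and -0.34 to -0.33 in food restricted. The settings of window, slide block, running median and value table cannot change the gap between the distance classes. Those of centring shift the classes alike. In the other settings the last 0.5 Mb stayed below the class from 1.5 to 2 Mb. This gap was smallest under normexp, at -0.29 against -0.15.

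The difference between the pools depended on the processing. Median D of the distal regions, 0.082, was 0.042 with normexp, 0.052 with loess, 0.0059 with quantile normalization, 0.17 without centring, 0.12 without dim immunoprecipitated probes and 0.11 with the mean over probes. It turned to -0.10 with centring on the densest value, which also moved the median D of all regions from 0.06 to -0.12, to -0.0036 with the running median of D along M taken off, and to -0.048 with the pools assigned by the value table. The count called higher was 31 with normexp, 17 with quantile normalization, 108 without centring and 21 with the densest value. It was 16 with the running median, 40 by the value table, 44 in a window of 1 Mb and 122 in one of 4 Mb. In that order these were 2.19%, 1.2%, 7.63%, 1.48%, 1.13%, 2.82%, 6% and 4.81% of the distal regions. Of the other autosomal regions, 2.82%, 1.13%, 7.15%, 1.35%, 1.03%, 2.39%, 4.5% and 4.51% were called higher. The count was 97 with loess (6.85%, against 8.7% elsewhere) and 57 with the mean (4.03%, against 3.09%). Without dim reference or saturated probes it was 61 (4.45%, against 4.13%), and without dim immunoprecipitated probes also 61 (5.79%, against 5.73%). The count called lower was 0 with normexp, 5 without centring, 25 with the densest value and 4 without dim reference or saturated probes. It was 0 without dim immunoprecipitated probes, 2 with the mean, 15 by the value table and 4 in 1 Mb. In that order these were 0%, 0.353%, 1.77%, 0.292%, 0%, 0.141%, 1.06% and 0.546% of the distal regions. Of the other autosomal regions, 0.00188%, 0.378%, 1.99%, 0.326%, 0.0647%, 0.162%, 1.03% and 0.606% were called lower. The higher share of these calls, 89.9%, was 45.7% with the densest value, 63% with quantile normalization, 57.1% with the running median, 72.7% by the value table and 100.0% with normexp or without dim immunoprecipitated probes. On 1 slide alone, 195 to 209 regions were past 0.5 (13.8% to 14.8%, against 12.2% to 13.6% elsewhere). Past -0.5 were 58 to 61 (4.1% to 4.31%, against 3.59% to 4.35%). Without the slide as a block, 60 regions were called higher (4.24%, against 3.94% elsewhere) and 4 lower (0.282%, against 0.422%). The median D was then 0.082. Of the 71 calls, 13 were kept with normexp, 16 with loess, 16 with quantile normalization, 15 with the running median and 2 by the value table. Centring on the densest value kept 21, the mean over probes 29 and leaving out the slide block 44. Without dim reference or saturated probes 52 were kept, and without centring all 71. Without dim immunoprecipitated probes 50 were still measured, and 35 of these were kept. By the array titles, D from the value table lies within each pool, so its values do not measure the pool difference.

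Among the named calls, D reversed by the value table at higher regions 1 (-0.13), 3 (-0.18), 4 (-0.086), 5 (-0.25), 6 (-0.15), 7 (-0.035), 8 (-0.27) and 9 (-0.25), and with normexp at 8 (-0.014). Of the lower regions, D reversed by the value table at 1 (1.16), 2 (0.19), 3 (0.33), 4 (0.68), 5 (0.28), 7 (0.36) and 8 (0.28), with loess at 1 (0.087), 2 (0.13), 3 (0.051), 5 (0.25) and 7 (0.22), with the mean at 5 (0.028), and at 7 without dim reference or saturated probes (0.051) and without dim immunoprecipitated probes (0.17). By the array titles, D from the value table sets the 2 arrays of the same pool against each other. Its sign there is not that of a difference between the pools. The cause of the reversals in the other settings was not tested. The ranks are those of the smaller D, from chr11:120782702-120783301 as higher region 1 and chr10:129292718-129293564 as lower region 1. With 1 pool per group, variation between animals is not in these values.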
